A study of Mus musculus with 16 samples.

Results

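The nitric oxide and cGMP signaling core of the mouse heart was followed here through 7 genes: Gucy1a1, Gucy1b1, Prkg1, Pde5a, Pde2a, Ddah1 and Ddah2. Members were chosen by name, with earlier results of these data known, by taking every probe of the array whose annotated symbol was one of these 7. This gave 9 of the 25697 probes on the array, with 3 probes for Gucy1a1 and 1 for each other gene. A probe was tested when 3 or more of the 4 arrays of a group detected it, with a detection p (the chance that a probe with no target gives such a signal) under 0.05. This kept 8 member probes for 6 genes among 12246 probes in all. Pde5a was the gene left without a tested probe.

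Nitric oxide made by endothelial nitric oxide synthase diffuses into neighbouring smooth muscle cells and cardiomyocytes and binds soluble guanylyl cyclase, a heterodimer of an alpha and a beta subunit that turns GTP into cGMP. cGMP then acts mainly through cGMP-dependent protein kinase, which relaxes vascular smooth muscle, and phosphodiesterases end the signal by breaking cGMP down. Upstream, dimethylarginine dimethylaminohydrolases degrade asymmetric dimethylarginine, an endogenous inhibitor of nitric oxide synthase.

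Total RNA of whole heart was hybridised to Illumina MouseRef-8 v2 arrays, 1 mouse per array, in 4 groups of 4 mice: female cs-ERα−/−, male cs-ERα−/−, female WT and male WT. All 16 mice were untreated C57BL/6 animals aged 18 weeks. In cs-ERα−/− mice the floxed exon 3 of estrogen receptor α was removed by Cre driven from the α-MHC promoter, so the deletion is confined by design to cardiomyocytes and other cardiac cell types keep the receptor. WT mice are labelled wild type and, by the study's methods, carried the floxed alleles (ERα flox/flox) without deletion, so the floxed alleles were shared by both genotypes. No Cre-carrying WT group was among the samples, so an effect of Cre and one of the deletion cannot be told apart.

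Median signals ranged from 17.2 to 25.6 over the 16 arrays, 11492 to 12610 probes were detected per array, and array pairs correlated at r between 0.993 and 0.996. Xist, the X-inactivation RNA, was detected in 8 of 8 females and 0 of 8 males, and the Y-linked Eif2s3y in 0 of 8 females and 8 of 8 males. Both probes of Esr1, which encodes the targeted receptor, failed detection on all 16 arrays, so the deletion could not be checked on these arrays. The study itself reports lower ERα expression by qRT-PCR in heart tissue of male and female knockouts. Myh6, the α-MHC gene, was detected on all 16 arrays.

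The sequences before the transcription starts of the soluble guanylyl cyclase genes are shown because these genes gave the only called difference within the set, in 1 subunit. Gucy1a1 and Gucy1b1 are direct neighbours on chromosome 3, with 0 annotated genes between them. The 250 bases before the RefSeq start of Gucy1b1 (build GRCm38.p6, chr3:82074712-82074961, minus strand) read, with the GC box GGGCGG in capitals:
Gucy1b1: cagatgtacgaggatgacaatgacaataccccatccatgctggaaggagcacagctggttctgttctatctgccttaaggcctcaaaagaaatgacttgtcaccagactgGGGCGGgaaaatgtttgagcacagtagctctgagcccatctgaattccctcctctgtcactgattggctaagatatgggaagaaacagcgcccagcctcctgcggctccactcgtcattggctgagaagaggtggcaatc
The RefSeq gene model of Gucy1a1 extends upstream of both starts in the promoter table, so only 30 bases are given for each, around the letters that matched. At start 1 (chr3:82145871-82145900, minus strand) the capitals mark a GC box 238 bases before the start. At start 2 (chr3:82145074-82145103, minus strand) they mark GGTCA, the half-site of the estrogen response element, 13 bases before the start:
Gucy1a1 start 1: aggatggcgactGGGCGGgagcagactcag
Gucy1a1 start 2: ctcccgggagggatagcGGTCAgggagcag

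Both strands of the 250 bases before each start were searched for 5 motifs, of which 3 are read for all members. The others were the CCAAT box (CCAAT, 33.8% of all windows) and the TATA box (TATAAA, 12.4%). The Gucy1b1 window held 2 CCAAT boxes and 0 TATA boxes. The half-site GGTCA was found before 5 of the 13 starts listed for the 7 genes, in Gucy1a1, Prkg1, Pde2a, Ddah1 and Ddah2, against 35.2% of all 32851 promoter windows. The GC box GGGCGG was found before 7 of the 13 starts, against 32.7% of all windows. The full palindrome GGTCANNNTGACC was found before 0 of the 13 starts and in 0.0639% of all windows. A match describes the letters only, and receptor binding was not measured.

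Gucy1a1, an alpha subunit of soluble guanylyl cyclase, was higher in females than in males, by 1.37-fold on its brightest probe, and did not differ between genotypes beyond the spread. Levels are log2 intensities after background correction and quantile normalization. On the brightest probe (probe 1) the level was 9.89, 9.88, 9.76 and 9.76 in the 4 female cs-ERα−/− hearts, against 9.29, 9.64, 9.62 and 9.17 in the male cs-ERα−/− hearts. It was 9.79, 9.93, 10.00 and 9.90 in the female WT hearts, against 9.56, 9.32, 9.55 and 9.16 in the male WT hearts. After normalization every female was above every male, with the lowest female at 9.76 and the highest male at 9.64. Such a separation, with all 8 females above all 8 males, was seen in 0.155% of the 12246 tested probes.

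Probe 1 averaged 9.86 ± 0.09 in females and 9.41 ± 0.20 in males (SD, n = 8 each), a log2 difference of 0.45 (SE 0.07) with a limma adjusted p of 0.000754. The 95% interval of the fold ran from 1.23 to 1.51. By intensity before normalization, the deposited signal averaged 941 ± 160 in females and 650 ± 108 in males. There the sexes overlapped, with male WT mouse 1 at 842 above female cs-ERα−/− mouse 3 (836) and female WT mice 1 and 2 (both 802). On the log2 scale after normalization the SD of this probe was smaller in females, while the SD of the deposited signal was larger in females.

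**Figure D1:**
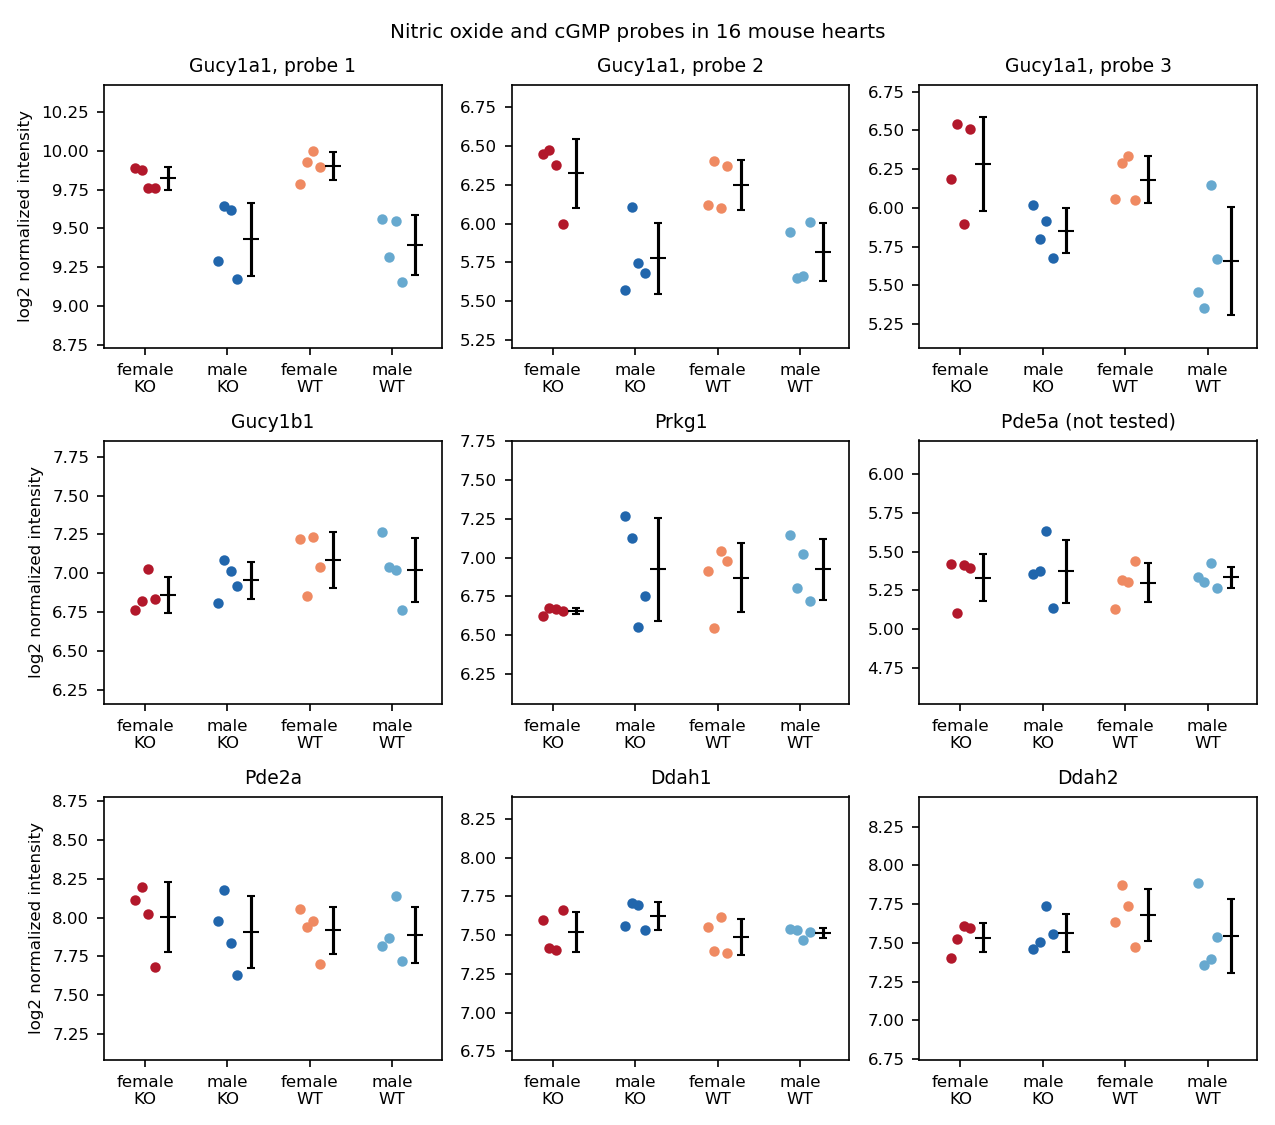
Log2 normalized intensity of the 9 member probes in each of 16 hearts, by group (KO is cs-ERα−/−), with the mean and SD of 4 mice as black bars and the same axis height in every panel. On Gucy1a1 probe 1 every female lies above every male, and no other panel separates the sexes completely.

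The remaining Gucy1a1 probes were dim, and the size of their differences depended on the background correction and the values used. Across the settings tried the sex difference ran from 0.28 with no background correction to 0.67 with the authors' values on probe 2 and from 0.27 to 0.68 on probe 3, against 0.42 to 0.50 over the settings on probe 1. Probe 2 read 6.45, 6.47, 6.38 and 6.00 in female cs-ERα−/− hearts, against 5.57, 6.11, 5.75 and 5.68 in male cs-ERα−/− hearts. It read 6.12, 6.41, 6.10 and 6.38 in female WT hearts, against 5.94, 5.65, 5.66 and 6.01 in male WT hearts. The sexes overlapped through the female cs-ERα−/− heart at 6.00 and the male cs-ERα−/− heart at 6.11, the highest of the males, which also lay just above the female WT heart at 6.10. The female minus male difference was 0.49 (SE 0.10, limma adjusted p 0.0141).

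Probe 3 read 6.18, 6.54, 5.90 and 6.51 in female cs-ERα−/− hearts, against 6.02, 5.80, 5.91 and 5.68 in male cs-ERα−/− hearts. It read 6.06, 6.29, 6.33 and 6.05 in female WT hearts, against 5.46, 5.35, 6.14 and 5.67 in male WT hearts. Here the overlap was wider, with 1 male WT heart at 6.14 above 3 females. The difference was 0.48 (SE 0.12, limma adjusted p 0.0452), just inside the threshold of 0.05. Probe 3 lost its call under 6 of 11 other settings (adjusted p up to 0.148). Of the 16 fits that each left out 1 mouse it kept the call in 3, those without male WT mouse 3, male cs-ERα−/− mouse 3 or female cs-ERα−/− mouse 3, and the adjusted p rose to 0.11 in the others.

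In all, 3 of the 8 tested member probes were called higher in females and 0 lower, all 3 of them for Gucy1a1, which makes 1 gene of 6. Over all tested probes 1.27% were called for sex, 0.637% higher and 0.629% lower. The 3 probes share a gene and the same 16 RNA samples, so they are not independent. The study lists this gene, as Gucy1a3, among its sex genes from the same arrays. The members were chosen with earlier results of these data known, so the count is a description and not a test of the set. As the hearts were measured as bulk tissue, fewer cells of a type and less RNA per cell cannot be told apart.

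The sex difference of Gucy1a1 was next taken within each genotype. In WT hearts probe 1 was 0.51 (SE 0.10) higher in females than in males, with a limma adjusted p of 0.0154, and the 4 females did not overlap the 4 males. This call was lost without male WT mouse 2 (adjusted p 0.0733), without male WT mouse 4 (0.0899) and without female WT mouse 3 (0.0681). In cs-ERα−/− hearts the difference was 0.39 (SE 0.10), again without overlap, and the limma adjusted p was 0.13. Females lay above males without overlap in 2.2% of all tested probes in cs-ERα−/− hearts and in 2.62% in WT hearts, and 0.278% and 0.367% of probes were called for sex there. The test of the difference itself, the genotype by sex interaction, gave −0.12 (SE 0.14, limma adjusted p 0.999), so the sex difference was not shown to depend on the genotype. No probe of the array was called for the interaction by limma (0 of 12246, 0%), and 0 were called under each of the 11 other settings. An unadjusted p under 0.05 was seen for 456 probes (3.72%), a smaller share than that threshold passes by chance.

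Probes 2 and 3 were not called within either genotype. Their female minus male differences were 0.55 and 0.43 in cs-ERα−/− hearts (SE 0.14 and 0.17, limma adjusted p 0.151 and 0.472). In WT hearts they were 0.43 and 0.53 (SE 0.14 and 0.17, adjusted p 0.31 and 0.262). All 3 probes thus had a higher mean in females in each genotype.

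Gucy1b1, the beta subunit that carries the heme to which nitric oxide binds, showed no such difference. It read 6.76, 6.82, 7.03 and 6.83 in female cs-ERα−/− hearts, against 6.81, 7.08, 7.01 and 6.91 in male cs-ERα−/− hearts. It read 7.22, 6.85, 7.23 and 7.04 in female WT hearts, against 7.27, 7.04, 7.02 and 6.76 in male WT hearts. The sexes overlapped throughout, and the female minus male difference was −0.02 with a 95% interval of −0.19 to 0.16 (limma adjusted p 0.968). By genotype, the mean was 6.91 (SD 0.12) with cs-ERα−/− and 7.06 (SD 0.18) with WT, over 8 hearts each, a difference of −0.15 (95% interval −0.32 to 0.02, limma adjusted p 0.372). That was the smallest adjusted p of any member for genotype.

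Since an alpha and a beta subunit work as a pair, the difference between the brightest Gucy1a1 probe and the Gucy1b1 probe was also taken within each array. A level of one probe cannot be set against that of another, so only the change of this difference between groups is read. It was 3.13, 3.06, 2.73 and 2.93 in female cs-ERα−/− hearts, against 2.48, 2.56, 2.60 and 2.26 in male cs-ERα−/− hearts. In female WT hearts it was 2.56, 3.08, 2.77 and 2.85, against 2.29, 2.27, 2.52 and 2.40 in male WT hearts. Only the female WT heart at 2.56 fell among the males, whose highest value was 2.60.

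The Gucy1a1 minus Gucy1b1 difference averaged 2.89 ± 0.20 in females and 2.42 ± 0.14 in males (SD, n = 8 each), a gap of 0.47. This gap is built from the same values as the sex differences of Gucy1a1 probe 1 (0.45) and Gucy1b1 (−0.02), so it is not a separate result. An exact two-sided permutation test that exchanged sex labels within each genotype (4900 arrangements) gave p = 0.000408, the smallest it allows, and 0.00163 after Benjamini-Hochberg adjustment over 4 such tests. By genotype the same quantity averaged 2.72 (SD 0.30) for cs-ERα−/− and 2.59 (SD 0.29) for WT, with an exact permutation p of 0.143 (0.205 adjusted). The matching difference for the methylarginine hydrolases, Ddah1 minus Ddah2, gave 0.13 between genotypes and −0.12 between sexes, with exact permutation p of 0.16 and 0.205 (0.205 adjusted for both).

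**Figure D2:**
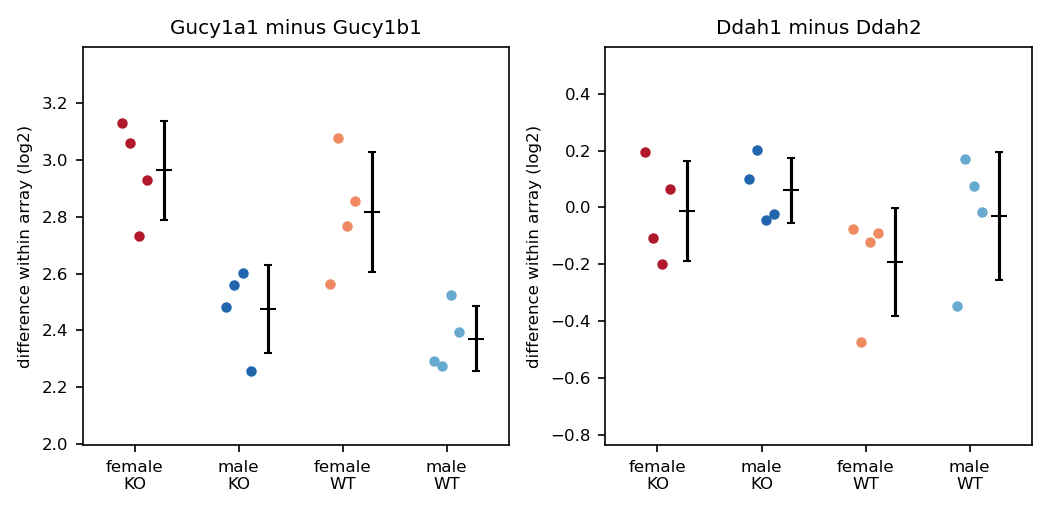
Difference between the brightest probes of 2 genes on the same array, in log2 units, for Gucy1a1 minus Gucy1b1 (left) and Ddah1 minus Ddah2 (right), by group, with the mean and SD of 4 mice. The Gucy1a1 minus Gucy1b1 difference averages 2.89 in females and 2.42 in males, and the female WT heart at 2.56 lies below the highest male at 2.60. The Ddah values of the sexes overlap as well.

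Prkg1, the cGMP-dependent protein kinase through which cGMP relaxes smooth muscle, did not pass the test in any comparison. It read 6.63, 6.67, 6.67 and 6.66 in female cs-ERα−/− hearts, against 7.27, 7.13, 6.55 and 6.75 in male cs-ERα−/− hearts. It read 6.91, 6.55, 7.05 and 6.98 in female WT hearts, against 7.15, 6.81, 7.02 and 6.72 in male WT hearts. The female cs-ERα−/− hearts were close together (SD 0.02) and the male cs-ERα−/− hearts far apart (SD 0.33). The difference was −0.16 between sexes (95% interval −0.37 to 0.05, limma adjusted p 0.535) and −0.11 between genotypes (−0.32 to 0.10, adjusted p 0.637).

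The 2 phosphodiesterases of the set differ in their substrates: Pde2a hydrolyses cGMP and cAMP and is stimulated by cGMP, and Pde5a is specific for cGMP. Pde2a read 8.11, 8.20, 8.02 and 7.68 in female cs-ERα−/− hearts, against 7.98, 8.18, 7.84 and 7.63 in male cs-ERα−/− hearts. It read 8.05, 7.94, 7.98 and 7.70 in female WT hearts, against 7.82, 7.87, 8.14 and 7.72 in male WT hearts. The groups overlapped, with differences of 0.06 between sexes (95% interval −0.12 to 0.25) and 0.05 between genotypes (−0.13 to 0.24) and limma adjusted p of 0.823 and 0.809.

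Pde5a was detected on 4 of the 16 arrays: 2 female cs-ERα−/−, 1 male cs-ERα−/−, 0 female WT and 1 male WT. Its deposited signal averaged 23.1 ± 4.4, 22.9 ± 6.2, 23.2 ± 8.2 and 22.7 ± 2.8 in female cs-ERα−/−, male cs-ERα−/−, female WT and male WT hearts (SD, n = 4 each), at the level of the array medians. These values give no order of the groups, and the transcript was not measurable above background with this probe.

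Ddah1 and Ddah2, the hydrolases of asymmetric dimethylarginine, were not called in any comparison. Ddah1 read 7.60, 7.42, 7.41 and 7.66 in female cs-ERα−/− hearts, against 7.56, 7.71, 7.70 and 7.53 in male cs-ERα−/− hearts. It read 7.55, 7.40, 7.61 and 7.38 in female WT hearts, against 7.54, 7.53, 7.47 and 7.52 in male WT hearts. Over all 16 hearts its SD was 0.10, and the differences were −0.07 between sexes (95% interval −0.20 to 0.07) and 0.07 between genotypes (−0.06 to 0.20).

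Ddah2 read 7.40, 7.53, 7.61 and 7.60 in female cs-ERα−/− hearts, against 7.46, 7.51, 7.74 and 7.56 in male cs-ERα−/− hearts. It read 7.63, 7.87, 7.74 and 7.48 in female WT hearts, against 7.88, 7.36, 7.39 and 7.54 in male WT hearts. The groups overlapped here too, with 0.05 between sexes (95% interval −0.11 to 0.22) and −0.06 between genotypes (−0.23 to 0.10). The limma adjusted p for sex was 0.716 for Ddah1 and 0.848 for Ddah2, and for genotype 0.61 and 0.742.

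**Figure D3:**
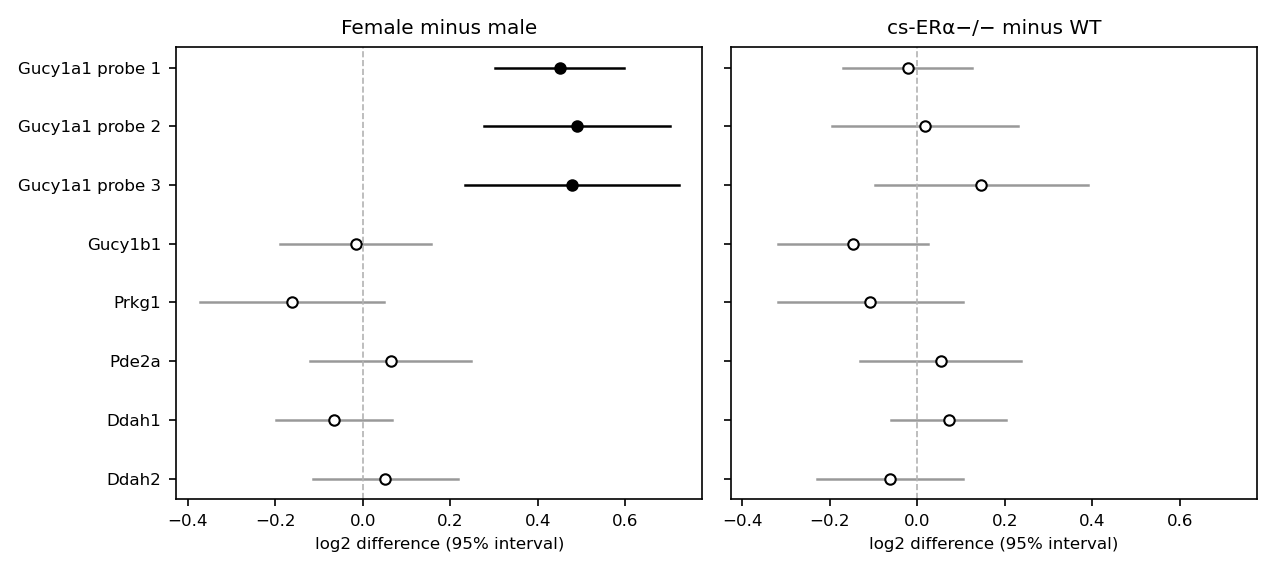
Log2 difference and 95% interval of each of the 8 tested member probes, female minus male (left) and cs-ERα−/− minus WT (right), from limma over 16 arrays, with filled points for an adjusted p under 0.05. The 3 Gucy1a1 probes lie at 0.45 to 0.49 on the left, and every interval on the right spans 0.

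For genotype, 0 of the 8 member probes were called, with limma adjusted p between 0.372 and 0.958 and 0 with an unadjusted p under 0.05. Over all tested probes 3.74% were called for genotype. Differences ran from −0.15 for Gucy1b1 to 0.15 for Gucy1a1 probe 3, with 4 above and 4 below 0. Within females (0.71% of all probes called) and within males (0.955%) the count was again 0 of 8. Gucy1a1 probe 1 itself averaged 9.63 (SD 0.26) with cs-ERα−/− and 9.65 (SD 0.31) with WT, a difference of −0.02 with a 95% interval of −0.17 to 0.12. None of the 5 tested members other than Gucy1a1 was called in any of the 7 contrasts, with limma adjusted p of 0.372 or more.

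The wider pathway was then read from 5 lists of 91 genes that supply, sense or use nitric oxide and cGMP, of which 80 had a probe and 50 a tested one. By the brightest tested probe of each, 1 was called for genotype and 1 for sex, both higher, and 0 for the interaction. Over all 8581 genes read in this way, 231 were called higher and 122 lower for genotype. For sex the counts were 65 higher and 56 lower, so the pathway lists do not stand out by their number of calls. The gene called for genotype was Prmt2, a protein arginine methyltransferase, at 10.45, 10.25, 10.31 and 10.23 in female cs-ERα−/− hearts and 10.34, 10.29, 10.23 and 10.09 in male cs-ERα−/− hearts. It was at 10.12, 10.03, 10.15 and 10.12 in female WT hearts and 9.95, 9.82, 9.90 and 10.06 in male WT hearts. Only the male cs-ERα−/− heart at 10.09 fell among the WT values.

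Prmt2 averaged 0.26 (SE 0.05) higher in cs-ERα−/− than in WT hearts, with a limma adjusted p of 0.00372, and it was also called within males (0.31, adjusted p 0.0285). Under median scaling in place of quantile normalization the genotype call was lost (adjusted p 0.274). Of the other 6 tested genes of methylarginine handling 0 were called. Carm1, another arginine methyltransferase, gave −0.18 for genotype (adjusted p 0.0871, and called under both ordinary models, with an adjusted p down to 0.037), Prmt3 −0.09 (0.24) and Prmt6 0.01 (0.962).

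The gene called for sex was Rgs2, a regulator of G protein signaling that cGMP-dependent protein kinase activates in vascular smooth muscle. Its probe was detected in 8 of 8 females and 2 of 8 males, so it entered the test through the females, where it was higher, and most male values were not above background. It read 6.08, 6.09, 6.43 and 6.35 in female cs-ERα−/− hearts, against 5.21, 5.04, 6.20 and 5.11 in male cs-ERα−/− hearts. It read 5.58, 5.83, 5.68 and 6.24 in female WT hearts, against 5.68, 5.33, 5.21 and 5.45 in male WT hearts. Male cs-ERα−/− mouse 3 stood apart from the other males, above 5 of the 8 females. The difference was 0.63 (SE 0.15, limma adjusted p 0.0286) and ran from 0.35 to 1.05 over the 10 other settings that tested the probe, with the call lost under 3 of them. Where a probe had to be detected in every group, Rgs2 was not tested. The call was also lost without any 1 of 9 mice (male WT 2, 3 and 4, female WT 4, male cs-ERα−/− 1, 2 and 4, female cs-ERα−/− 3 and 4), with an adjusted p of up to 0.0715.

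Among the genes that make nitric oxide, 0 of 15 tested were called for either factor. Nos3, the endothelial nitric oxide synthase, averaged 9.05 (SD 0.17) with cs-ERα−/− and 9.25 (SD 0.11) with WT, a difference of −0.20 (SE 0.07, limma adjusted p 0.122), and 0.01 between sexes. Without female cs-ERα−/− mouse 1 the genotype difference of Nos3 was called (adjusted p 0.0212). Nos1 and Nos2, the neuronal and inducible synthases, were detected on 3 and 2 arrays and not tested. Slc7a1, an arginine transporter, gave 0.26 for sex (adjusted p 0.332), and Calm3, a calmodulin gene, −0.09 for genotype (0.242). The natriuretic peptide receptors Npr1 and Npr2, which are membrane guanylyl cyclases, and the clearance receptor Npr3 were not called, with sex differences of −0.05, 0.06 and 0.05.

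Of 9 other phosphodiesterases tested 0 were called. Pde1a, a calmodulin-dependent enzyme that breaks down cGMP, averaged 7.36 ± 0.08 in females and 7.11 ± 0.14 in males, a difference of 0.24 (SE 0.07) that missed the threshold (limma adjusted p 0.0971). Pde3a, the cGMP-inhibited cAMP phosphodiesterase of the heart, gave −0.26 for genotype (adjusted p 0.187). The median difference over a list was −0.01 for nitric oxide synthesis, −0.05 for methylarginine handling, 0.04 for cyclases, 0.04 for phosphodiesterases and −0.03 for effectors by genotype. By sex these medians were 0.01, 0.05, 0.00, 0.02 and 0.05, and the medians over all 8581 genes tested were −0.004 for genotype and 0.003 for sex.

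Soluble guanylyl cyclase is found in vascular smooth muscle, pericytes and fibroblasts as well as in cardiomyocytes, so the markers of these cells were read beside the sex difference of Gucy1a1. Of 15 fibroblast markers tested, 4 were called higher in females and 0 lower, against 65 higher and 56 lower over all 8581 genes. The mean was higher in females for 12 of the 15 and lower for 3, and the median difference was 0.20. The 4, named after their values were seen, were Lum (0.56), Col14a1 (0.52), Tcf21 (0.34) and Mfap5 (0.34), with limma adjusted p of 0.000231, 0.00381, 0.0286 and 0.0304. Lum and Col14a1 were called under all 11 other settings and without each mouse, though Col14a1 ran from 0.31 to 0.69. Tcf21 lost its call under 3 of the 11 settings (adjusted p up to 0.126) and Mfap5 under 4 (up to 0.154). Both were also lost without any 1 of 7 mice (male WT 1 and 4, female WT 2, male cs-ERα−/− 2 and 4, female cs-ERα−/− 1 and 4), which left 2 fibroblast calls. Tcf21 was lost in addition without female WT 1, and Mfap5 without female WT 3, male cs-ERα−/− 1 or female cs-ERα−/− 3. The count was 7 without male cs-ERα−/− mouse 3 and 2 to 6 over the settings. Dcn, the brightest fibroblast marker, gave −0.03, and 0.03 under median scaling. The summed fibroblast signal ran from 24627 to 30134 in females and from 24045 to 30165 in males, and Postn was detected on 0 arrays.

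Lum, a collagen-binding proteoglycan of the matrix, read from 10.85 to 11.37 (median 11.15) in females and from 10.32 to 11.04 (median 10.54) in males. Its sex difference was 0.61 in WT hearts (limma adjusted p 0.00979) and 0.52 in cs-ERα−/− hearts (adjusted p 0.0503). The part of these markers in the difference of Gucy1a1 was not tested.

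Smooth muscle and pericyte markers gave 0 of 13 calls for sex with a median of 0.01, and their summed signal ran from 30603 to 37585 in females and from 30056 to 37296 in males. Acta2, the smooth muscle actin, gave 0.17 for sex (adjusted p 0.483) and Rgs5, a pericyte gene, 0.01. Endothelial markers gave 0 of 14 calls for sex, with a median of 0.02, and cardiomyocyte markers 0 of 15, with a median of −0.003. Myeloid markers gave 0 of 12 calls for sex, all 12 with a lower mean in females (median −0.15), and 0 to 2 calls, all lower, under other settings or without 1 mouse. Of 5 atrial markers tested, Dkk3 was called higher in females (1.23, limma adjusted p 0.000258), at 6.94 to 9.24 in females and 6.12 to 6.79 in males. Female cs-ERα−/− mouse 4 stood apart at 9.24, with the next female at 7.87, and the call held without each mouse in turn.

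By genotype, 231 of all 8581 genes were called higher in cs-ERα−/− hearts and 122 lower. Of the 12 myeloid markers 9 were called higher, among them Lyz1 (0.48), a number that was 4 under median scaling. The summed myeloid signal ran from 24008 to 32955 with cs-ERα−/− and from 16853 to 24102 with WT. Of 13 mural markers Acta2 was called higher (0.52) and Higd1b lower (−0.31), and of 15 fibroblast markers Dcn (0.18) and Dpt (0.24) were called higher. Under median scaling Higd1b (adjusted p 0.0977), Dcn (0.604) and Dpt (0.401) lost the call, and Acta2 lost it under both ordinary models (up to 0.0598). The natriuretic peptide gene Nppa, on the atrial list, was higher by 1.02. The 14 endothelial markers gave 0 calls by their brightest probe, with 13 of 14 lower on average in cs-ERα−/− hearts and a median of −0.08. Of the 3 probes of Aqp1, a water channel of the endothelium, another was called lower (−0.24, limma adjusted p 0.0334). These shifts stood beside 0 calls for genotype among the members.

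**Figure D4:**
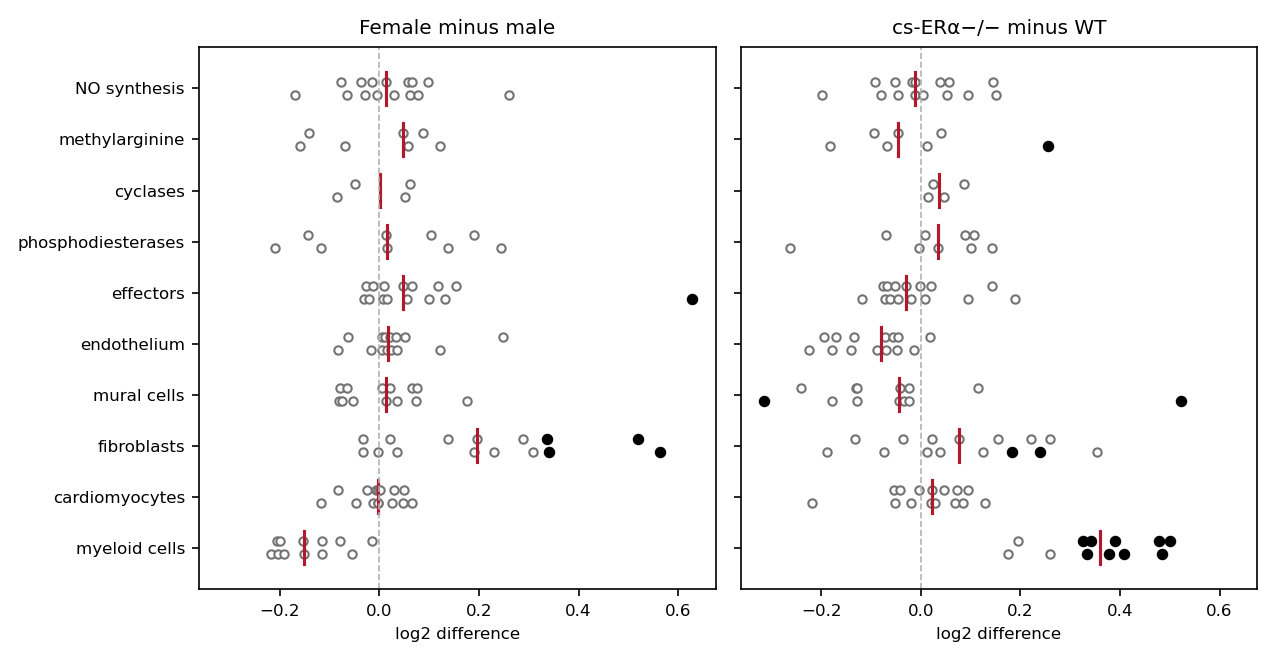
Log2 difference of each tested gene of 5 pathway lists and 5 cell type lists, female minus male (left) and cs-ERα−/− minus WT (right), with filled points for an adjusted p under 0.05 and a red bar at each list's median. Rgs2 is the filled point among effectors at 0.63 on the left and Prmt2 that among methylarginine genes at 0.26 on the right, and filled fibroblast points lie on the left at 0.34 to 0.56.

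Across the 16 hearts, the genes whose level followed Gucy1a1 probe 1 most closely among 8580 were Mdk (r = 0.89), Kdm6a (0.89) and Xist (0.86). Kdm6a is an X-linked gene that escapes X inactivation, and Xist is the X-linked RNA that drives it. After group means were removed these values were 0.57, 0.55 and 0.41. For Gucy1b1 the closest were Baz2a (0.82), Mapkapk2 (0.80) and Zkscan17 (0.79), and for Prkg1 they were Apbb2 (0.81), Xpc (0.80) and Aqp5 (0.76). For Pde2a they were Atp5g3 (0.88), Rfc2 (0.86) and Ahnak (0.85), for Ddah1 Prr13 (0.76), Id2 (0.76) and Ndufb9 (0.74), and for Ddah2 Ppp3cb (0.82), Tbc1d10b (0.76) and Kcnj12 (0.72). These values come from the same 16 arrays and are the highest of many, so they are given as a description.

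Among the members themselves, the 3 Gucy1a1 probes correlated with each other at 0.76, 0.70 and 0.48, and at 0.30, 0.27 and −0.26 once group means were removed. Gucy1a1 probe 1 and Gucy1b1 correlated at 0.21 over the 16 hearts, and at 0.46 within groups. All of these rest on the same 16 arrays and their shared normalization.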

How the data were processed

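Total RNA from the hearts of 16 mice was read on Illumina MouseRef-8 v2 arrays. Per the study's methods, the authors averaged on-array bead replicates in GenomeStudio. The deposited non-normalized intensity values carry no normalization between arrays, and each has a deposited detection p-value. Their array minima ran from −50.0 to −31.8, so a background had already been subtracted from them. A second deposited table of intensities holds the authors' cubic spline normalized values, used here as an alternative only. No column was left out. The number of arrays limits precision.

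Intensities were processed with neqc (normexp on the detection p-values, offset 16, quantile normalization, log2) in limma 3.58.1 (R 4.3.3). Kept were the 12246 of 25697 probes detected (p under 0.05) by 3 or more of the 4 arrays in 1 group or more. A mean per group was fitted to all 16 arrays, with empirical Bayes moderation and an intensity trend. The 7 contrasts were genotype, sex, their interaction, genotype within each sex and sex within each genotype. Tests were two-sided, adjusted by Benjamini-Hochberg over all 12246 probes of a contrast and called under 0.05. The script was tested on simulated data first. Replicates are separate mice by their labels. The methods put the arrays on 2 BeadChips, but no label or column names the chip of a mouse, so no chip term was fitted.

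Probe symbols came from GEO's platform annotation: 23978 of 25697 probes had 1 symbol, 0 several and 1719 none. A gene of a list was read by its brightest tested probe. All member probes, the called genes of each pathway list with up to 4 of its smallest p, the 4 brightest markers per cell type, and the 3 genes most like each member were eligible to be named; Lum, Col14a1, Tcf21, Mfap5, Dkk3, Higd1b and Dpt as called markers were added after their values were seen. The members and lists were chosen with earlier results of these data known. Promoter sequences are RefSeq's (GRCm38.p6), and all 7 genes matched.

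Alternatives were the authors' values, no background correction, median scaling, an offset of 50, other probe filters, other moderation, a replicate block, the leading residual component as a covariate, 2 groups alone for the contrasts within a sex or genotype, and leaving out each mouse. The authors' values were raised to 16 where lower. With no background correction, the deposited signals were only shifted so that all were positive before quantile normalization.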

Additional observations from a re-analysis of the deposited data

Results flagged for a closer look

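Of 36 groups of 4 mice examined (9 probes in 4 groups), 1 held a mouse far from the others, where chance alone marks about 1 in 20. In female cs-ERα−/− hearts the Pde5a probe read 5.10 in mouse 2, and 5.39, 5.41 and 5.42 in the other mice. The gap to the nearest value made up 0.908 of the group's range, above Dixon's critical value for 4 values. The probe was detected in 2 of these 4 hearts, so the distance lies at the level of background.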

How the results depend on the processing

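The sex difference of Gucy1a1 probe 1 kept its direction and its call under all 11 other settings (0.42 to 0.50, limma adjusted p 0.00021 to 0.0268) and without each mouse in turn (0.41 to 0.49). Probe 2 kept its call except under an ordinary linear model (adjusted p 0.0569) or that model on the authors' values (0.0566). The number of member probes called for sex, 3 as reported, was 1 under those same 2 settings, 2 with no background correction, no probe filter, no intensity trend or the replicate block, and 2 to 3 without 1 mouse. For sex within WT hearts the number, 1 as reported, was 0 under median scaling, no intensity trend and both ordinary models, and 0 to 1 without 1 mouse. The Gucy1a1 minus Gucy1b1 sex difference stayed at 0.43 to 0.51 under 6 settings, other Gucy1a1 probes included, with an exact permutation p of up to 0.0139. The cause of each lost call was not tested.

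The main fit did not pair mice by number, as no label gives such a pairing. Whether same-numbered mice shared a step of the work was not tested. Deviations of same-numbered mice correlated at −0.11 to 0.20 (mean 0.062), with 7 of 24 pairs over 0.1. For mice of different numbers the mean was −0.021, with 7 of 72 pairs over 0.1. As a hint from the data, 9 of 16 arrays correlated best with an array of their own number. With the number as a replicate block, the only member call lost was that of Gucy1a1 probe 3 for sex (0.48, adjusted p 0.0592), and 537 probes were called for genotype against 458 without it, and 178 for sex against 155. The leading residual component, 16% of the residual variance, as a covariate gave 624 and 225, median scaling 131 and 79, an ordinary model 323 and 80, that model on the authors' values 314 and 82, and no intensity trend 345 and 105.

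Sign changes touched values near 0 that were not called. Under median scaling these were Gucy1b1 for sex (0.025), Ddah2 for sex in cs-ERα−/− hearts (0.030), and for genotype in males Gucy1a1 probe 1 (−0.014), Prkg1 (−0.020) and Pde2a (−0.0056). Prkg1 in males was also −0.0020 with the authors' values under both models. Leaving out 1 mouse turned the sign of 17 uncalled values. For genotype the ranges were −0.062 to 0.021 for Gucy1a1 probe 1 and −0.038 to 0.072 for probe 2. For genotype in females Ddah1 ran from −0.014 to 0.075. For genotype in males they were −0.044 to 0.12 and −0.15 to 0.029 for Gucy1a1 probes 1 and 2, −0.15 to 0.013 for Gucy1b1, −0.11 to 0.12 for Prkg1, −0.070 to 0.11 for Pde2a and −0.040 to 0.14 for Ddah2. For sex Gucy1b1 ran from −0.060 to 0.024, and Ddah2 in cs-ERα−/− hearts from −0.068 to 0.026. For sex in WT hearts they were −0.024 to 0.14 for Gucy1b1, −0.12 to 0.055 for Prkg1, −0.025 to 0.11 for Pde2a and −0.069 to 0.0072 for Ddah1. For the interaction they were −0.26 to 0.033 for Gucy1a1 probe 3 and −0.026 to 0.17 for Pde2a.

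Signal over background limits the dim probes: without a probe filter Pde5a gave 0.04 for genotype (adjusted p 0.937) and −0.04 for sex (0.95). A BeadChip block was not run because no column names a chip, and the Pde5a minus Pde2a difference was not run because Pde5a was not tested. With 4 mice a group, 95% intervals of the sex and genotype differences of single probes were 0.26 to 0.49 wide on the log2 scale.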
